A study of Mus musculus with 10 samples.

Results

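Prg4-tdTomato+ cells from Fsk-treated cultures were set against Col2a1-eGFP+ cells from DMSO-treated cultures, the 2 sorted populations of the series that differ in both the reporter and the treatment. There were 3 libraries of Fsk tdTomato+ cells (replicates 1, 4 and 5) and 4 of DMSO eGFP+ cells (replicates 1, 3, 4 and 5), chosen by their labels, which makes 7 of the 10 libraries of the series. The other 3 libraries, of DMSO tdTomato+ cells (replicates 1, 3 and 5), share the reporter with one end and the solvent treatment with the other, and each gene's level in them was placed between the ends. All 10 hold poly(A) RNA of reporter-positive cells sorted at day 14 from 3xR, a mouse embryonic stem cell line. DMSO is the solvent control. Fsk is the abbreviation in the labels, which do not spell it out; it is in common use for forskolin. Because reporter and treatment change together between the ends, their parts in a difference cannot be told apart in this comparison alone. The labels name a single cell line and are silent on whether replicate libraries stem from different cultures; the p-values therefore reflect the spread among these libraries alone, and that spread may be technical.

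Cartilage cells are known by a matrix of type II collagen, encoded by Col2a1, with aggrecan, link protein and the minor collagens IX and XI, made under the transcription factor Sox9. Prg4 encodes lubricin, which coats the surfaces of joints and tendons and lets them slide. Forskolin activates adenylyl cyclase, which makes cyclic AMP. Cyclic AMP acts through protein kinase A and the transcription factor CREB, and phosphodiesterases break it down, so that genes of some phosphodiesterases are themselves targets of the pathway in many cell types.

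Library totals were 15355459 to 18988782 reads in Fsk tdTomato+, 18023599 to 20408696 in DMSO tdTomato+ and 15561217 to 20391156 in DMSO eGFP+ cells. Levels are given as CPM, reads scaled to a common library size with TMM factors, and are compared within a gene, not between genes, since they are not corrected for length. The share of counts in ribosomal RNA genes ranged from 0.274% to 4.76% in Fsk tdTomato+, from 0.225% to 2.84% in DMSO tdTomato+ and from 0.0782% to 6.52% in DMSO eGFP+ libraries. Without ribosomal and mitochondrial genes the counts of called genes were the same, at 104 higher and 116 lower.

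Fsk tdTomato+ cells held lower levels of cartilage matrix genes such as Col2a1, Comp and Hapln1 and of the osteocyte gene Dmp1 than DMSO eGFP+ cells. For Col2a1 this is set in part by the sort, since DMSO eGFP+ cells were sorted by its reporter. Fsk tdTomato+ cells held higher levels of 4 phosphodiesterase genes, of Igf1 and IGF-binding protein genes, of the secretory gene Scg2 and of matrix proteinase genes such as Mmp12. Of 16169 genes tested, 104 were higher and 116 lower in Fsk tdTomato+ cells (edgeR's quasi-likelihood test, Benjamini-Hochberg adjusted p below 0.05, n = 3 against 4). These calls are 0.643% and 0.717% of the genes tested, or 1.36% together. Each called gene differed by at least 2-fold, and in each of the 220 the 3 Fsk tdTomato+ libraries lay entirely above or below the 4 DMSO eGFP+ libraries. Over all tested genes 11.8% had no such overlap, 6.59% with Fsk tdTomato+ higher and 5.16% with it lower. The median log2 fold change of all tested genes was -0.0082. The counts moved by over 1.5 times when 1 of some libraries was left out. They were 34 higher and 24 lower without Fsk replicate 1, 49 and 29 without Fsk replicate 4, 36 and 15 without Fsk replicate 5, 32 and 48 without DMSO eGFP+ replicate 4, and 274 and 195 without DMSO eGFP+ replicate 5. Higher genes numbered 68 without DMSO eGFP+ replicate 1 and 66 without replicate 3, and lower genes then moved less.

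The marker genes stood far apart at the ends. Col2a1 (ENSMUSG00000022483, chromosome 15, 97975602 to 98004695, minus strand, in build GRCm38) had 53.6, 19.7 and 27.5 CPM in Fsk tdTomato+ libraries 1, 4 and 5, 187, 390.1 and 82.0 CPM in DMSO tdTomato+ libraries 1, 3 and 5, and 838, 2992, 983 and 1910.0 CPM in DMSO eGFP+ libraries 1, 3, 4 and 5. The 3 groups did not overlap, and the log2 fold change of Fsk tdTomato+ over DMSO eGFP+ was -5.64 (SE 0.76, adjusted p = 0.00473). The gene that drives the eGFP reporter was thus lower in the cells sorted for the other reporter. DMSO eGFP+ cells were sorted by that reporter, so this difference is set in part by the sort and is no independent result. Prg4, the gene behind the tdTomato reporter, did not separate the ends, with 0.667, 0.787 and 0.693 CPM in Fsk tdTomato+, 1.25, 0.776 and 0.479 CPM in DMSO tdTomato+ and 2.55, 0, 1.27 and 0.206 CPM in DMSO eGFP+ libraries. Its log2 fold change was -0.48 (SE 1.09, 95% interval -2.83 to 1.86, edgeR adjusted p = 0.930), and its sign depended on the fit, at 0.82 with limma-voom.

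Comp, which encodes an oligomeric matrix protein of cartilage and tendon (chromosome 8, 70373558 to 70382066, plus strand), had 2.91, 2.70 and 1.39 CPM in Fsk tdTomato+, 22.8, 62.4 and 9.38 CPM in DMSO tdTomato+ and 63.9, 204, 108 and 67.8 CPM in DMSO eGFP+ libraries. It too fell with no overlap between any of the groups, by 5.57 on the log2 scale (SE 0.73, edgeR adjusted p = 0.00424). T, or brachyury, a transcription factor of early mesoderm and notochord (chromosome 17, 8434423 to 8442496, plus strand), had 0.546, 0.618 and 0.347 CPM in Fsk tdTomato+, 3.96, 9.05 and 0.599 CPM in DMSO tdTomato+ and 35.4, 47.3, 13.1 and 9.34 CPM in DMSO eGFP+ libraries. T fell by 5.69 on the log2 scale (SE 0.94, edgeR adjusted p = 0.0118); DMSO tdTomato+ replicate 5 lay among the Fsk tdTomato+ libraries and the other 2 lay between the ends. The call of T was lost when any 1 of the 3 Fsk libraries was left out, with log2 fold changes of -5.87 to -5.47 and adjusted p of 0.0532 to 0.0779.

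Shisal1 (chromosome 15, 84379203 to 84447097, minus strand) rose in the other direction, with 75.6, 72.7 and 52.0 CPM in Fsk tdTomato+, 0.156, 0.569 and 1.04 CPM in DMSO tdTomato+ and 0, 0.647, 0.276 and 1.13 CPM in DMSO eGFP+ libraries. The 2 DMSO groups overlapped fully, and Fsk tdTomato+ exceeded DMSO eGFP+ cells by 6.97 on the log2 scale (SE 0.77, edgeR adjusted p = 0.00212). Scg2, the gene of secretogranin II, a protein of the dense-core secretory granules of neuroendocrine cells, had 11.9, 53.1 and 80.7 CPM in Fsk tdTomato+, 0.573, 0.207 and 0.639 CPM in DMSO tdTomato+ and 0.758, 0.575, 0.386 and 0.413 CPM in DMSO eGFP+ libraries. Its log2 fold change of 6.51 (SE 0.65) had the smallest adjusted p of the comparison, 0.00139, although Fsk replicate 1 held several times less than the other 2 Fsk libraries. Shisal1 and Scg2, like Col2a1 and Comp, stayed past the threshold in each of the 10 fits that leave out 1 library.

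**Figure D1:**
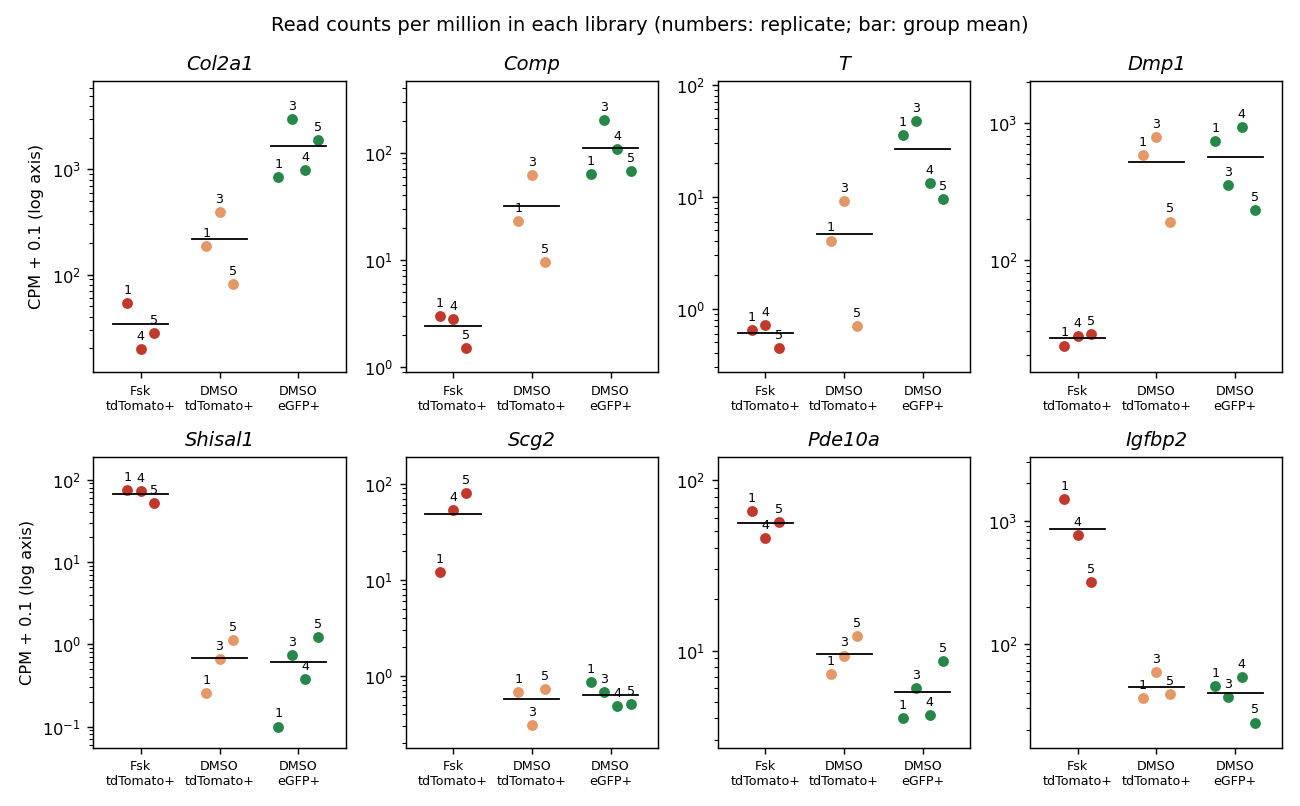
Levels of 8 genes (CPM plus 0.1, log axis) in each library of Fsk tdTomato+, DMSO tdTomato+ and DMSO eGFP+ cells; the number beside a point is the replicate and the bar is the group mean. Col2a1, Comp and T step up across the 3 groups, whereas for Dmp1, Shisal1, Scg2, Pde10a and Igfbp2 the DMSO groups overlap and Fsk tdTomato+ stands apart.

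To place DMSO tdTomato+ cells between the ends, the log2 fold change of DMSO tdTomato+ over DMSO eGFP+ cells (the reporter step) was divided by that of Fsk tdTomato+ over DMSO eGFP+ cells. A position of 0 is the DMSO eGFP+ level, 1 the Fsk tdTomato+ level, and the rest of the way is the step from DMSO to Fsk within tdTomato+ cells (the treatment step). Positions are a description without a test, since the steps and the ends share libraries. Most called genes stood near the DMSO eGFP+ end. The 104 genes higher in Fsk tdTomato+ cells had a median position of 0.105 (quartiles -0.0260 and 0.229), and the 116 lower genes one of 0.132 (quartiles -0.0194 and 0.293). Of the higher genes 31 had a position below 0, 50 one from 0 to 0.25 and 23 one from 0.25 to 0.75, and none lay closer to the Fsk end than that. Of the lower genes 32 had a position below 0, 51 one from 0 to 0.25, 31 one from 0.25 to 0.75 and 2 one above 1. Positions past 0.5 were found for 3 higher genes and 10 lower genes.

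Over all tested genes whose ends lay at least 2-fold apart, called or not, the median position was 0.212 for the 1520 higher genes and 0.139 for the 1575 lower genes, with 23.8% and 18.98% past 0.5. By single library, DMSO tdTomato+ replicate 3 lay nearest to DMSO eGFP+ cells, with median positions of 0.0288 for higher and 0.0344 for lower genes, replicate 5 farthest, at 0.193 and 0.25, and replicate 1 at 0.172 and 0.124. Each library was set against the mean of all DMSO eGFP+ libraries and not its same-numbered one. Differences between replicate numbers are therefore not separated from these positions. Without DMSO eGFP+ replicate 5 the median position of the genes then called higher was 0.272. In 9 higher and 8 lower genes all 3 DMSO tdTomato+ libraries lay in the gap between the ends; Col2a1, Comp, Meltf and Hapln1 were among the lower ones and Mmp9 and Igfbp4 among the higher ones. In 25 higher and 30 lower genes all 3 lay within the range of the DMSO eGFP+ libraries, and in 0 of the 220 did all 3 lie within the Fsk tdTomato+ range.

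**Figure D2:**
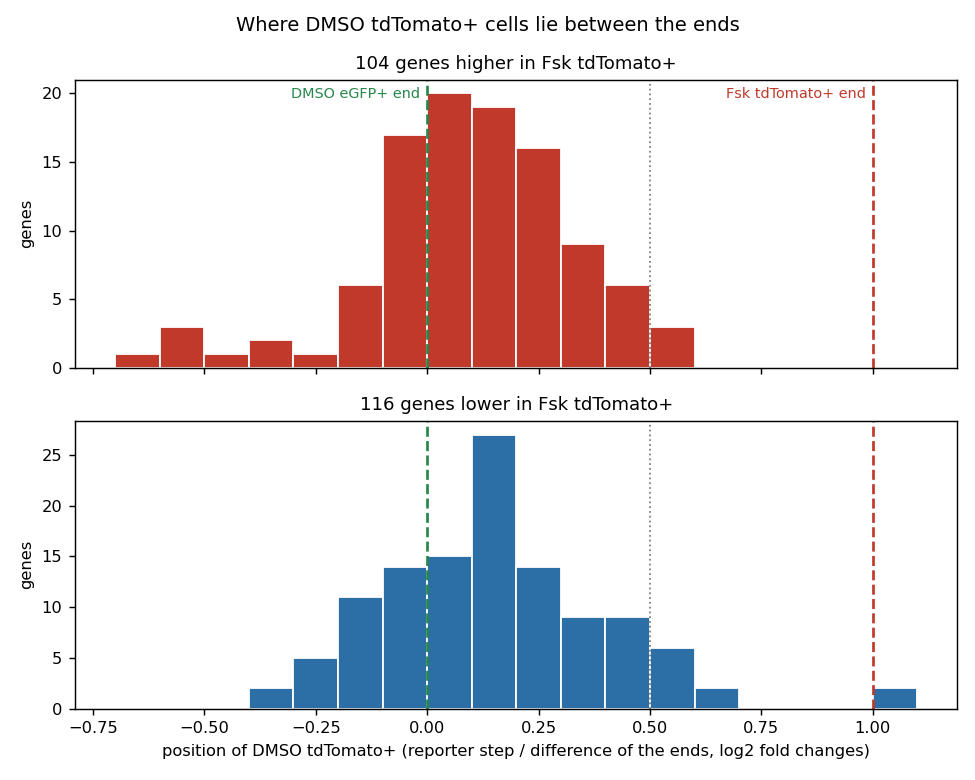
Number of called genes by the position of DMSO tdTomato+ cells between the DMSO eGFP+ end (0) and the Fsk tdTomato+ end (1), for the 104 genes higher and the 116 genes lower in Fsk tdTomato+ cells. Both distributions centre near 0.1, and only 2 lower genes reach the Fsk end.

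A test of each gene's DMSO tdTomato+ level against the midpoint of the ends called 0 genes by edgeR in either direction (0% of 16169), with a smallest adjusted p of 0.0956 and 783 genes at an unadjusted p below 0.05. limma-voom called 0 as well, while DESeq2 called 31 higher and 48 lower, and edgeR with a block for the replicate number 31 higher and 34 lower. The steps themselves, which share libraries with the ends, gave no called gene for the reporter step (0% in either direction, smallest adjusted p 0.339, 221 genes at an unadjusted p below 0.05), against 48 higher (0.297%) and 44 lower (0.272%) for the treatment step. With that block, edgeR called 14 genes lower in DMSO tdTomato+ than in DMSO eGFP+ cells (0.0866%) and 0 higher. These included Col2a1 (log2 fold change -3.36, adjusted p = 0.0168), Comp (-2.06, 0.0191) and T (-3.02, 0.0150). The others were Col11a2, Cnmd, Snorc, Meltf, Colgalt2, Ucma, Col9a1, Matn3, Scrg1, Cd24a and Cpm. Same-numbered DMSO libraries correlated at 0.492 to 0.649, a pairing that the fit without the block does not use. Without the block, DESeq2 called 13 lower and 0 higher, and limma-voom 0 in both directions.

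Cartilage matrix genes pointed the same way between the ends. All 22 tested members of the list had a negative log2 fold change between the ends, with a median of -2.31, and 8 passed the test, all lower: Col2a1, Comp, Col11a2, Hapln1, Cnmd, Chad, Snorc and Susd5. Over all tested genes 0.717% were called lower. Col2a1 and Comp are markers picked with earlier results of these data known, and DMSO eGFP+ cells were sorted by the Col2a1 reporter. The median of the reporter step was -1.71 and that of the treatment step -0.87, so for this list the reporter step was the longer of the pair. Each of the 8 called genes had a position above 0.25, with a median of 0.499 and a range of 0.326 to 1.03, whereas 25.5% of all called genes did. The summed level of the list was 1125, 2036 and 2720.0 CPM in Fsk tdTomato+ libraries 1, 4 and 5, 2709.6, 3201 and 2426 CPM in DMSO tdTomato+ libraries 1, 3 and 5, and 4162, 10035, 5522 and 7688 CPM in DMSO eGFP+ libraries 1, 3, 4 and 5. Both tdTomato+ groups lay below every DMSO eGFP+ library and overlapped each other. The list had 4 called members without Fsk replicate 1, 5 without Fsk replicate 4 or 5 and 8 to 11 without any other library.

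Col11a2, a chain of cartilage collagen XI, had 6.12, 4.95 and 8.37 CPM in Fsk tdTomato+, 5.21, 21.7 and 21.1 CPM in DMSO tdTomato+ and 52.3, 170, 65.1 and 139 CPM in DMSO eGFP+ libraries. It fell by 4.04 on the log2 scale (SE 0.59, edgeR adjusted p = 0.00743), and its position of 0.677 put DMSO tdTomato+ cells nearer the Fsk end. Hapln1, the link protein that ties aggrecan to hyaluronan, had 16.9, 43.7 and 42.8 CPM in Fsk tdTomato+, 114, 121 and 114 CPM in DMSO tdTomato+ and 170, 568, 257 and 415 CPM in DMSO eGFP+ libraries. The 3 groups did not overlap for Hapln1, which lay about midway (position 0.478) and fell by 3.35 (SE 0.49, edgeR adjusted p = 0.00743). Cnmd, the gene of chondromodulin, a cartilage glycoprotein that inhibits vessel growth, had 0.849, 0.675 and 0.693 CPM in Fsk tdTomato+, 0.313, 0.828 and 0.838 CPM in DMSO tdTomato+ and 3.93, 30.6, 8.38 and 42.2 CPM in DMSO eGFP+ libraries. Here the tdTomato+ groups overlapped and both stood below DMSO eGFP+ cells, with a log2 fold change of -4.84 between the ends (SE 0.82, edgeR adjusted p = 0.0134) and -4.99 for the reporter step, which gives a position of 1.03. Colgalt2, a collagen galactosyltransferase gene, was the other gene with a position above 1, at 1.03, and fell by 2.84 (SE 0.51, edgeR adjusted p = 0.0164); its call was lost without any 1 of the Fsk libraries (adjusted p 0.0515 to 0.101).

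Chad, the gene of the leucine-rich matrix protein chondroadherin, fell by 4.74 (SE 0.73, edgeR adjusted p = 0.00885, position 0.406). Snorc, a cartilage proteoglycan gene named after its values were seen, had 1 read in all Fsk tdTomato+ libraries together, against 604 in the DMSO eGFP+ libraries, which is 499 times fewer for the same depth (95% counting interval 89.2 to 19742). Susd5, a hyaluronan-binding protein gene named after its values were seen, fell by 3.47 (SE 0.65, edgeR adjusted p = 0.0199). Of the 14 members that did not pass, Col9a1 and Acan, both named after their values were seen, had log2 fold changes of -3.90 (SE 0.89, edgeR adjusted p = 0.0512) and -2.04 (SE 0.55, edgeR adjusted p = 0.0996). Col9a1 passed with DESeq2 (adjusted p = 1.43e-05), limma-voom (0.0438), the 7 libraries of the ends (0.0276), the replicate block (0.00111) and in 5 leave-outs, without any 1 DMSO tdTomato+ library or DMSO eGFP+ replicate 1 or 5. Acan passed with DESeq2 (adjusted p = 0.00407), the 7 libraries of the ends (0.0398), no filter on low counts (0.000106), the replicate block (0.00324) and without DMSO tdTomato+ replicate 1 (0.0413). Acan, the gene of aggrecan, had 80.3, 41.1 and 77.4 CPM in Fsk tdTomato+, 360, 74.1 and 128 CPM in DMSO tdTomato+ and 268, 155, 220 and 448 CPM in DMSO eGFP+ libraries.

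A few cartilage genes did not run in order across the groups. Ucma, a cartilage matrix protein gene named after its values were seen, had 5.64, 10.6 and 25.6 CPM in Fsk tdTomato+, 0.104, 1.55 and 0.479 CPM in DMSO tdTomato+ and 2.20, 68.1, 6.18 and 25.2 CPM in DMSO eGFP+ libraries. The ends overlapped (log2 fold change -0.86, SE 0.96, edgeR adjusted p = 0.814), and the DMSO tdTomato+ libraries lay below both of them. With the replicate block, and without DMSO eGFP+ replicate 3, the sign of Ucma turned, at 0.65 and 0.31. Among the called cartilage genes, Cnmd, Snorc and Susd5 lost their calls when any 1 of the 3 Fsk libraries was left out and Chad without Fsk replicate 1, with adjusted p from 0.0599 for Chad to 0.0927 for Susd5; Col2a1, Comp, Col11a2 and Hapln1 lost theirs in no leave-out.

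**Figure D3:**
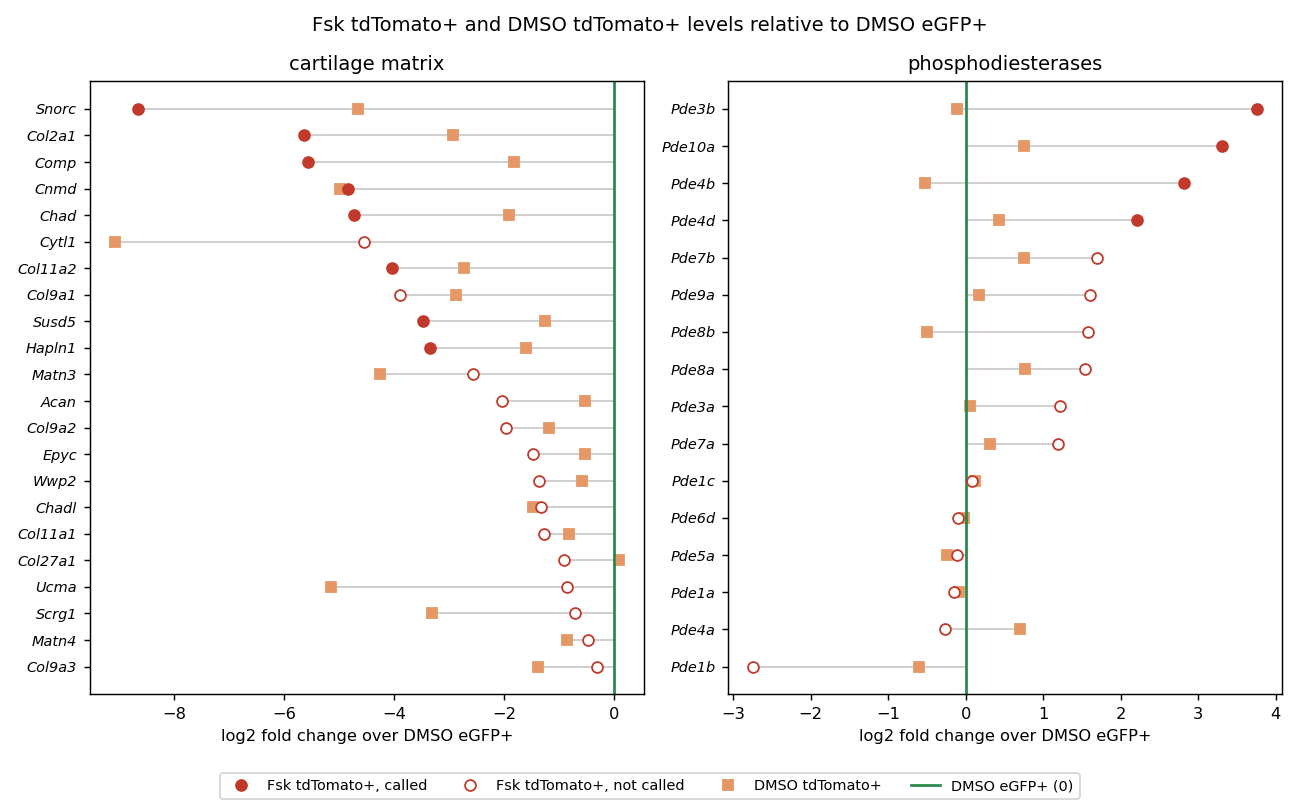
Log2 fold change over DMSO eGFP+ cells (0, green line) of each tested cartilage matrix gene and phosphodiesterase gene, in Fsk tdTomato+ (circles, filled where called) and DMSO tdTomato+ cells (squares). Cartilage squares lie well below 0 for most genes, while phosphodiesterase squares stay within 0.8 of it; the square of Cytl1 is a fitted value for a gene with 0 reads in the DMSO tdTomato+ libraries.

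Regulators of the chondrocyte programme were lower in part. Of 12 tested chondrogenic factors 3 fell and none rose, with a median of -1.30 between the ends, -0.18 for the reporter step and -1.08 for the treatment step. Over all tested genes 0.717% were called lower. Pax9, a paired-box factor of the sclerotome, had 1.03, 0.450 and 0.347 CPM in Fsk tdTomato+, 6.41, 9.88 and 5.87 CPM in DMSO tdTomato+ and 4.75, 5.75, 4.25 and 6.29 CPM in DMSO eGFP+ libraries. The DMSO groups overlapped and Fsk tdTomato+ stood below both, with a log2 fold change of -3.11 between the ends (SE 0.54, edgeR adjusted p = 0.0138). Fgfr3, a receptor that restrains chondrocyte growth, fell by 2.80 (SE 0.52, edgeR adjusted p = 0.0185, position 0.397), and Pth1r, the receptor of parathyroid hormone and its related protein, by 3.19 (SE 0.70, edgeR adjusted p = 0.0437, position 0.0593). Sox9, named after its values were seen, had 108, 65.7 and 56.5 CPM in Fsk tdTomato+, 139, 191 and 147 CPM in DMSO tdTomato+ and 130, 335, 137 and 170 CPM in DMSO eGFP+ libraries. The ends did not overlap for Sox9, but its log2 fold change of -1.34 (SE 0.39) did not pass (edgeR adjusted p = 0.140); with DESeq2 it did (0.0230), as with no filter on low counts (0.0402). Each of the 3 called factors lost its call in at least 2 leave-outs, Pax9 without Fsk replicate 4 or 5, Fgfr3 without any Fsk library or DMSO eGFP+ replicate 4, and Pth1r without Fsk replicate 4 or 5 or DMSO eGFP+ replicate 1, 3 or 4 (adjusted p 0.0620 to 0.153).

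Genes of hypertrophic cartilage, osteoblasts and osteocytes had the opposite division of steps. Over 16 tested members the median was -1.73 between the ends, 0.067 for the reporter step and -1.80 for the treatment step, and 2 passed, both lower (0.717% of all tested genes were called lower). Dmp1, a mineralised matrix protein of osteocytes (chromosome 5, 104202613 to 104214102, plus strand), had 23.5, 27.5 and 28.5 CPM in Fsk tdTomato+, 581, 792 and 191 CPM in DMSO tdTomato+ and 740, 350, 941 and 233 CPM in DMSO eGFP+ libraries. The DMSO groups overlapped, and the lowest of their libraries lay far above the highest Fsk library. Dmp1 fell by 4.42 on the log2 scale (SE 0.64, edgeR adjusted p = 0.00743), with a position of 0.0269. Mef2c, a transcription factor of chondrocyte hypertrophy, fell by 1.99 (SE 0.37, edgeR adjusted p = 0.0206, position -0.0324) and lost its call without any 1 of the Fsk libraries or DMSO eGFP+ replicate 4 (adjusted p 0.0650 to 0.122). Spp1, the osteopontin gene, named after its values were seen, had 6901, 10021.5 and 4857 CPM in Fsk tdTomato+, 38020.4, 20927 and 4774 CPM in DMSO tdTomato+ and 66962, 56521.5, 39907 and 7614 CPM in DMSO eGFP+ libraries. Replicate 5 was the lowest library of Spp1 in every group, the ends overlapped, and the log2 fold change of -2.56 (SE 0.89) did not pass (edgeR adjusted p = 0.220); it passed with DESeq2 (0.00387), with no filter on low counts (0.00029) and without DMSO eGFP+ replicate 5 (0.0464).

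Tendon and fibrous matrix genes showed no common direction. Of 24 tested members 2 fell and none rose, with a median of -0.49 (0.717% of all tested genes were called lower). Thbs2, the gene of thrombospondin 2, a matricellular protein, had 119.9, 213 and 132 CPM in Fsk tdTomato+, 981, 1158 and 681 CPM in DMSO tdTomato+ and 469.9, 880.4, 1209 and 908 CPM in DMSO eGFP+ libraries. It fell by 2.48 (SE 0.44, edgeR adjusted p = 0.0161) with a position of -0.0469. Ccn2, or connective tissue growth factor, fell by 3.34 (SE 0.72, edgeR adjusted p = 0.0379), with Fsk tdTomato+ libraries at 79.6 to 232 CPM and DMSO eGFP+ libraries at 473 to 3028 CPM. Scx, the gene of scleraxis, a transcription factor of tendon progenitors, was named after its values were seen. It had 323, 479.9 and 357 CPM in Fsk tdTomato+, 163, 100.5 and 229 CPM in DMSO tdTomato+ and 223, 95.7, 215 and 111 CPM in DMSO eGFP+ libraries. Every Fsk library exceeded every DMSO eGFP+ library, but the log2 fold change of 1.26 (SE 0.39) did not pass edgeR's test (adjusted p = 0.159); DESeq2 gave 0.0407, and no filter on low counts 0.0431. Thbs2 lost its call without Fsk replicate 1 or 5 or DMSO eGFP+ replicate 4, and Ccn2 in 6 of 10 leave-outs, without any Fsk library or DMSO eGFP+ replicate 1, 3 or 4 (adjusted p 0.0520 to 0.202).

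Of 14 tested genes of the joint surface 1 rose, Sfrp2, and none fell, with a median of -0.34. Over all tested genes 0.643% were called higher. In this list 5 members had a positive and 9 a negative log2 fold change. Its summed level was 945 to 1493 CPM in Fsk tdTomato+, 1816 to 6032 CPM in DMSO tdTomato+ and 1857 to 7225 CPM in DMSO eGFP+ libraries. Fsk tdTomato+ thus lay below both DMSO groups without overlap, so the rise of Sfrp2 does not stand for the list. Sfrp2, a secreted WNT modulator, had 62.6, 57.1 and 169 CPM in Fsk tdTomato+, 0.521, 0.569 and 9.78 CPM in DMSO tdTomato+ and 0.964, 4.74, 1.38 and 9.90 CPM in DMSO eGFP+ libraries. Its log2 fold change was 4.49 (SE 1.01, edgeR adjusted p = 0.0472), just inside the threshold, and the call was lost without any Fsk library or DMSO eGFP+ replicate 1, 3 or 4 (adjusted p 0.0724 to 0.179).

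Genes of cyclic AMP signalling rose in part. Of 29 tested cAMP and CREB targets 6 rose and none fell (0.643% of all tested genes were called higher): Scg2, Pde10a, Pde3b, Pde4b, Pde4d and Crem. Of 16 tested phosphodiesterase genes, 4 of which are in that list too, Pde3b, Pde10a, Pde4b and Pde4d rose. The median between the ends was 0.72 for the cAMP list and 1.38 for the phosphodiesterases; the reporter step had medians of 0.052 and 0.089, and the treatment step 0.29 and 0.91. None of the 6 genes had a position above 0.25.

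Pde3b had 36.1, 28.2 and 36.3 CPM in Fsk tdTomato+, 1.09, 2.64 and 3.07 CPM in DMSO tdTomato+ and 1.17, 1.65, 2.32 and 4.64 CPM in DMSO eGFP+ libraries. It hydrolyses cAMP and rose by 3.76 on the log2 scale (SE 0.50, edgeR adjusted p = 0.00473). Pde10a, which hydrolyses cAMP and cGMP, had 66.2, 45.6 and 56.5 CPM in Fsk tdTomato+, 7.19, 9.26 and 12.1 CPM in DMSO tdTomato+ and 3.93, 5.96, 4.08 and 8.56 CPM in DMSO eGFP+ libraries. It rose by 3.31 (SE 0.36, edgeR adjusted p = 0.0021), and its position of 0.227 was the highest of the 6. Pde4b had 70.6, 109 and 58.6 CPM in Fsk tdTomato+, 7.77, 3.78 and 11.9 CPM in DMSO tdTomato+ and 6.96, 9.20, 13.0 and 15.8 CPM in DMSO eGFP+ libraries, and rose by 2.82 (SE 0.42, edgeR adjusted p = 0.00747). For Pde3b, Pde10a and Pde4b the 2 DMSO groups overlapped. The remaining member of the cAMP-specific PDE4 family to pass, Pde4d, rose by 2.21 (SE 0.40, edgeR adjusted p = 0.0164).

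Crem, named after its values were seen, encodes a CREB-family factor whose inducible short form represses cAMP responses. It had 47.0, 53.5 and 61.1 CPM in Fsk tdTomato+, 9.75, 8.90 and 9.54 CPM in DMSO tdTomato+ and 16.1, 3.02, 10.1 and 12.2 CPM in DMSO eGFP+ libraries, and rose by 2.38 (SE 0.43, edgeR adjusted p = 0.0167). The table counts reads per gene and does not separate its forms. Among the 23 members of the cAMP list that did not pass, 11 had a positive and 12 a negative log2 fold change. Pde4d lost its call without Fsk replicate 4 or 5 or DMSO eGFP+ replicate 4, and Crem without any Fsk library or DMSO eGFP+ replicate 4 (adjusted p 0.0558 to 0.0805), while Scg2, Pde3b, Pde4b and Pde10a lost theirs in no leave-out.

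The letters TGACGTCA, the palindromic cAMP response element bound by CREB, were looked for in the 250 bases before each gene's RefSeq start (GRCm38.p6). They were found for 3 of the called genes with an entry, shown here because Scg2 is the gene with the smallest adjusted p; each line gives 30 bases, 5′ to 3′ on the strand of the gene, with the element in capitals.
Scg2 (chr1:79440076-79440105, minus strand, rose): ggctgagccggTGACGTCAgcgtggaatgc
Gpm6b (chrX:166238883-166238912, plus strand, rose): gcccccggcgcTGACGTCAgggcccctctc
Ltbp1 (chr17:75005445-75005474, plus strand, fell): gatttgctgccTGACGTCAcgtctgctgca
The element begins 68, 49 and 73 bases before the RefSeq start of Scg2, Gpm6b and Ltbp1. The Scg2 stretch lies within the longer span that GENCODE M21 gives the gene. The 8 letters occurred in 2 of 79 higher genes with an entry (2.53%), 1 of 83 lower genes (1.20%) and 334 of 11252 tested genes (2.97%). The shorter TGACG or its complement CGTCA, which the 8 letters contain, occurred in 18.99% of the higher, 25.3% of the lower and 29.7% of all tested genes with an entry. Gpm6b and Ltbp1 are shown for the match alone. Of the phosphodiesterase genes that rose, Pde4b has the short form in this window and Pde10a and Pde4d have neither form. Pde3b, which rose too, and the called cAMP target Crem have no entry.

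Of 15 tested genes of neuroendocrine secretion Scg2, Shisal1 and Syt13 rose and none fell, with a median of 0.91, against 0.43 for the reporter step. Over all tested genes 0.643% were called higher. Scg2 and Shisal1 are markers picked with earlier results of these data known, so their calls are no support for the list. Syt13, an atypical synaptotagmin gene, had 143, 23.8 and 33.9 CPM in Fsk tdTomato+, 1.09, 1.5 and 1.36 CPM in DMSO tdTomato+ and 1.38, 0, 0.496 and 1.44 CPM in DMSO eGFP+ libraries. Fsk replicate 1 was far above the other Fsk libraries, and the log2 fold change was 6.30 (SE 0.86, edgeR adjusted p = 0.00475), or 5.10 without that library. Gpha2, the alpha subunit of the glycoprotein hormone thyrostimulin, had 91.0, 311 and 161 CPM in Fsk tdTomato+, 1.04, 6.72 and 15.9 CPM in DMSO tdTomato+ and 3.99, 4.38, 4.63 and 16.9 CPM in DMSO eGFP+ libraries. It rose by 4.64 (SE 0.79, edgeR adjusted p = 0.0138) and missed the threshold without DMSO eGFP+ replicate 4 (4.46, adjusted p = 0.0598). Pcdh8, a protocadherin gene, rose by 4.93 (SE 0.78, edgeR adjusted p = 0.00916), and Wscd1 by 4.82 (SE 0.70, edgeR adjusted p = 0.00743).

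Among 25 tested matrix proteinases and inhibitors 3 rose and 1 fell, with a median of 0.75. Over all tested genes 0.643% were called higher and 0.717% lower. Mmp12, the macrophage elastase gene, had the largest log2 fold change of the named genes, 9.11 (SE 1.16, edgeR adjusted p = 0.00424), with 131, 14.6 and 21.2 CPM in Fsk tdTomato+, 0.156, 0 and 0.0798 CPM in DMSO tdTomato+ and 0.413, 0, 0 and 0 CPM in DMSO eGFP+ libraries. Its 6 reads in DMSO eGFP+ cells all came from replicate 1. Without that library the fitted value, which then has only 0 reads at the DMSO eGFP+ end and is no bound, was 13.03, and without Fsk replicate 1 it was 7.45. Mmp9, a gelatinase, had 177, 14.2 and 9.41 CPM in Fsk tdTomato+, 1.67, 2.53 and 1.32 CPM in DMSO tdTomato+ and 1.17, 0.791, 1.16 and 0.567 CPM in DMSO eGFP+ libraries. All DMSO tdTomato+ libraries lay in the gap between the ends, close to its lower edge (position 0.161), and the log2 fold change of 6.17 (SE 0.91, edgeR adjusted p = 0.00747) was 3.68 without Fsk replicate 1.

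Mmp3, stromelysin 1, had 306, 161 and 94.3 CPM in Fsk tdTomato+, 36.6, 12.1 and 2.20 CPM in DMSO tdTomato+ and 19.7, 33.8, 10.4 and 8.36 CPM in DMSO eGFP+ libraries, and rose by 3.37 (SE 0.75, edgeR adjusted p = 0.0459). Timp3, a metalloproteinase inhibitor bound to the matrix, had 27.5, 21.5 and 35.9 CPM in Fsk tdTomato+, 149, 225 and 171 CPM in DMSO tdTomato+ and 47.8, 215, 129 and 195 CPM in DMSO eGFP+ libraries, and fell by 2.37 (SE 0.47, edgeR adjusted p = 0.0240). Mmp3 lost its call in 6 leave-outs (without any Fsk library or DMSO eGFP+ replicate 1, 4 or 5) and Timp3 in 5 (without any Fsk library or DMSO eGFP+ replicate 3 or 4), with adjusted p of 0.0521 to 0.210. Mmp12 and Mmp9 are also products of macrophages. The macrophage and blood list had a summed level of 12.8 to 26.2 CPM in Fsk tdTomato+, 36.8 to 122 CPM in DMSO tdTomato+ and 30.3 to 137 CPM in DMSO eGFP+ libraries. Of its 20 genes 6 were tested and none passed by edgeR; 3 had positive and 3 negative log2 fold changes (median -0.088). Cd68, which carried most of the sum, had 7.48 to 20.1 CPM in Fsk tdTomato+ and 25.6 to 133 CPM in DMSO eGFP+ libraries, whereas Coro1a had 2.13 to 2.98 CPM in Fsk tdTomato+ and 0 to 1.32 CPM in DMSO eGFP+ libraries. The 14 untested members had at most 4 reads in any Fsk tdTomato+, 14 in any DMSO tdTomato+ and 11 in any DMSO eGFP+ library; Adgre1, Tyrobp, Spi1, C1qa, C1qb, Hbb-bt and Gata1 had 0 in every Fsk tdTomato+ library, and Fcer1g and Hba-a1 reached 4. The part of these cells in the proteinase levels was not tested.

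In the insulin-like growth factor system the ligand and 2 binding proteins rose. Of 13 tested members 3 rose and none fell, with a median of 0.64, against 0.18 for the reporter step (0.643% of all tested genes were called higher). Without DMSO eGFP+ replicate 4 only 1 rose, Igfbp2. Igfbp2, a binding protein (chromosome 1, 72824503 to 72852474, plus strand), had 1484, 761 and 318 CPM in Fsk tdTomato+, 36.2, 59.1 and 39.4 CPM in DMSO tdTomato+ and 45.5, 37.2, 53.3 and 22.9 CPM in DMSO eGFP+ libraries. The DMSO groups overlapped, and Igfbp2 rose by 4.43 (SE 0.51, edgeR adjusted p = 0.00244), a call kept in every leave-out. Igf1, the ligand (chromosome 10, 87858265 to 87937042, plus strand), had 63.5, 452 and 304 CPM in Fsk tdTomato+, 19.2, 11.6 and 40.2 CPM in DMSO tdTomato+ and 6.2, 9.20, 24.1 and 44.0 CPM in DMSO eGFP+ libraries, and rose by 3.71 (SE 0.74, edgeR adjusted p = 0.0260). Fsk replicate 1, the highest library of Igfbp2, was the lowest Fsk library of Igf1.

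Igfbp4 had 2269, 1407 and 981 CPM in Fsk tdTomato+, 458, 522 and 428 CPM in DMSO tdTomato+ and 335, 328, 350.0 and 410.5 CPM in DMSO eGFP+ libraries. The 3 groups did not overlap, and it rose by 2.12 (SE 0.37, edgeR adjusted p = 0.0153, position 0.188). Pappa2, a proteinase that cleaves IGF-binding proteins and stands outside the list, was named after its values were seen. It had 48.0, 44.6 and 24.5 CPM in Fsk tdTomato+, 5.11, 3.67 and 1.20 CPM in DMSO tdTomato+ and 1.65, 3.95, 3.09 and 2.53 CPM in DMSO eGFP+ libraries, and rose by 3.80 (SE 0.50, edgeR adjusted p = 0.00424). Igf1 lost its call without Fsk replicate 4 or 5 or DMSO eGFP+ replicate 1, 3 or 4, and Igfbp4 without Fsk replicate 1 or DMSO eGFP+ replicate 4 (adjusted p 0.0559 to 0.0995).

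Mitosis genes had higher values at the Fsk end, though few passed the test. All 25 tested mitosis genes had log2 fold changes above 0, their median being 2.34, but only Cdk1 passed (0.643% of all tested genes were called higher). Cdk1, the kinase that drives entry into mitosis, had 107, 66.2 and 101 CPM in Fsk tdTomato+, 19.9, 25.6 and 19.2 CPM in DMSO tdTomato+ and 28.9, 30.3, 27.0 and 47.3 CPM in DMSO eGFP+ libraries. It rose by 1.45 (SE 0.29, edgeR adjusted p = 0.0273), and DMSO tdTomato+ lay beyond the DMSO eGFP+ end, at a position of -0.435. The summed level of the list was 1431, 421 and 1008 CPM in Fsk tdTomato+ libraries 1, 4 and 5, 63.2, 171 and 166 CPM in DMSO tdTomato+ libraries 1, 3 and 5, and 76.9, 173, 109 and 454 CPM in DMSO eGFP+ libraries 1, 3, 4 and 5. DMSO eGFP+ replicate 5 overlapped Fsk replicate 4, and the other DMSO libraries lay below every Fsk library.

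The mitosis calls turned on that library. Without DMSO eGFP+ replicate 5, 20 of the 25 genes rose and the median was 3.43, and with the replicate block 22 rose; none rose without Fsk replicate 1 or 5 or DMSO eGFP+ replicate 1, 3 or 4. Cdk1 lost its call without Fsk replicate 1 or 5 or DMSO eGFP+ replicate 1, 3 or 4 (adjusted p 0.0660 to 0.135). The median of the reporter step was -0.63 in the fit of all libraries and 0.36 without DMSO eGFP+ replicate 5. Ccnb1, the gene of cyclin B1, named after its values were seen, had 74.0, 29.7 and 80.1 CPM in Fsk tdTomato+, 1.88, 4.81 and 6.67 CPM in DMSO tdTomato+ and 1.86, 4.46, 6.07 and 24.3 CPM in DMSO eGFP+ libraries, and did not pass (log2 fold change 2.73, SE 0.71, edgeR adjusted p = 0.0889). Ccnb1 passed with DESeq2 (0.00413), limma-voom (0.0361), no filter on low counts (7.14e-08), the replicate block (0.00613) and without DMSO eGFP+ replicate 5 (0.00634). Of 25 DNA replication genes 23 had a positive log2 fold change (median 1.22), and Tyms, thymidylate synthase, rose, by 2.09 (SE 0.37, edgeR adjusted p = 0.0161), a call lost without Fsk replicate 1 or 5 or DMSO eGFP+ replicate 4 (adjusted p 0.0515 to 0.0927); without DMSO eGFP+ replicate 5, 8 of them rose.

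**Figure D4:**
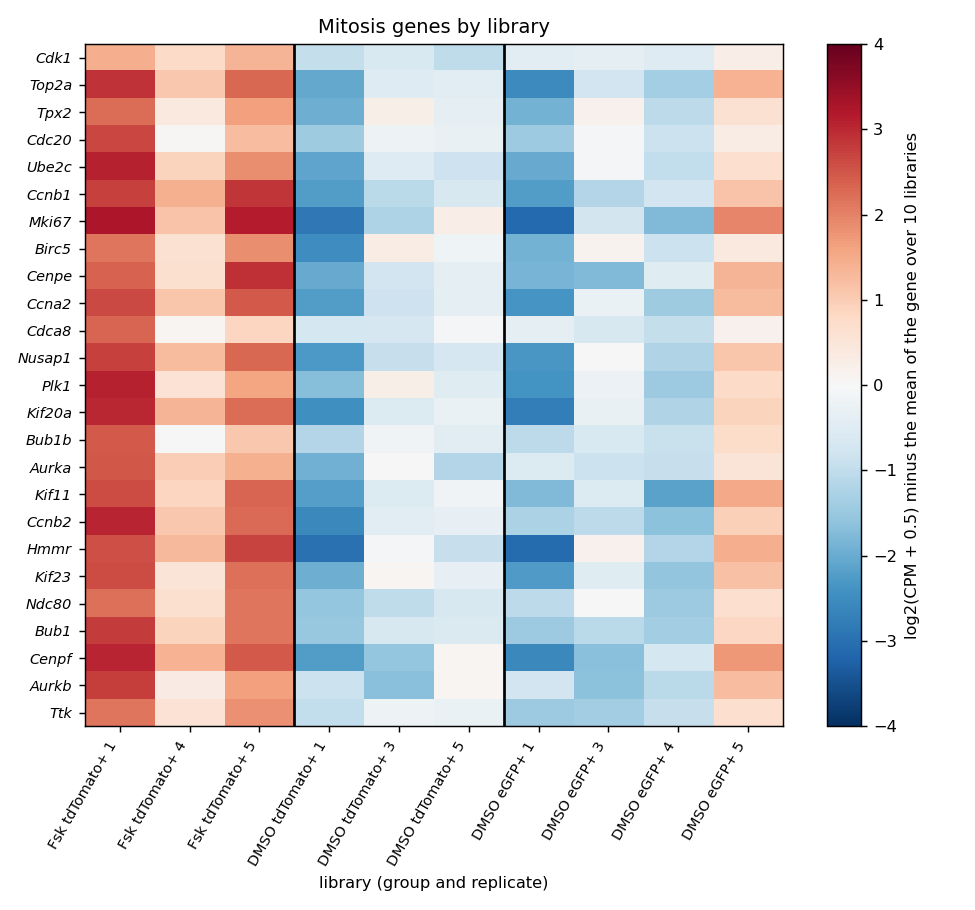
Log2(CPM + 0.5) of the 25 mitosis genes in each library, minus the mean of the gene over the 10 libraries, with groups divided by black lines. The 3 Fsk tdTomato+ libraries are high, replicate 4 least so, and DMSO eGFP+ replicate 5 is the highest of the 7 DMSO libraries.

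Genes of other signalling pathways moved singly, and the calls are given for single genes and not for the pathways. Over all tested genes 0.643% were called higher and 0.717% lower. Of 14 AP-1 and NFI factors Atf3 fell, by 2.25 (SE 0.43, edgeR adjusted p = 0.0229), and of 12 regulators of G protein signalling Rgs16, which shortens receptor signals, fell by 4.45 (SE 0.78, edgeR adjusted p = 0.0158). Of 13 hedgehog targets the forkhead factor Foxf2 fell, by 2.79 (SE 0.47, edgeR adjusted p = 0.0134). Of 17 WNT targets and antagonists Dkk2, a secreted WNT modulator, rose by 2.91 (SE 0.57, edgeR adjusted p = 0.0240) beside Sfrp2. Of 20 BMP targets and antagonists the ligand Bmp7 fell, by 2.15 (SE 0.49, edgeR adjusted p = 0.0492). Of 16 TGF-beta targets Ccn2 and Ltbp1, which tethers latent TGF-beta to the matrix, fell, Ltbp1 by 1.71 (SE 0.35, edgeR adjusted p = 0.0281). Of 21 laminins and basement membrane genes Lamb3 and Lamc3 fell, by 3.86 (SE 0.69, edgeR adjusted p = 0.0161) and 2.83 (SE 0.60, edgeR adjusted p = 0.0362). Positions of these 8 genes other than Ccn2 and Sfrp2 ran from -0.0561 for Lamb3 to 0.261 for Bmp7. List medians lay between -0.51 for the regulators of G protein signalling and 0.38 for the laminins. Each of these genes lost its call without at least 1 Fsk library, Foxf2 only without Fsk replicate 5 (adjusted p 0.0740) and Bmp7 in 7 of 10 leave-outs (0.0542 to 0.202).

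No member of 5 further lists passed by edgeR. These were interferon response (16 tested, median 1.148), stress chaperones (11, median -0.35), unfolded protein and amino acid stress (15, median -0.57), hypoxia and glycolysis (18, median -0.57) and mitochondrially encoded genes (13, median 0.34, all with a positive log2 fold change). The 13 mitochondrial genes together held 30966 to 54538 CPM in Fsk tdTomato+, 15258 to 49387 CPM in DMSO tdTomato+ and 23076 to 47010 CPM in DMSO eGFP+ libraries.

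Markers of other cells gave few calls, though some lists differed in their summed level (over all tested genes 0.643% were called higher and 0.717% lower). The endothelial, skeletal and heart muscle, smooth muscle, fat and pluripotency lists had 7, 6, 9, 4 and 2 tested members, of which none passed by edgeR. The endothelial sum was 38.7 to 64.1 CPM in Fsk tdTomato+, 71.1 to 76.5 CPM in DMSO tdTomato+ and 72.9 to 93.5 CPM in DMSO eGFP+ libraries, and the pluripotency sum 22.1 to 59.9 CPM in Fsk tdTomato+, 78.3 to 159 CPM in DMSO tdTomato+ and 86.6 to 215 CPM in DMSO eGFP+ libraries. For both, as for the macrophage list, Fsk tdTomato+ lay below DMSO eGFP+ cells without overlap. Single members were mixed, with 4 positive and 3 negative log2 fold changes in the endothelial list (median 0.014). The pluripotency list had 1 of each sign (median -0.56), its 2 tested members being Klf4 and Nanog. Its untested members had at most 18 reads in any Fsk tdTomato+, 16 in any DMSO tdTomato+ and 10 in any DMSO eGFP+ library. Klf4 and Nanog thus carried most of the pluripotency sum, which does not stand for the list. The sums of the skeletal and heart muscle, smooth muscle and fat lists overlapped between the ends. Some members left untested, because too few libraries reached the filter's minimum, were high in part of the Fsk libraries. Cdh5 and Actc1 were picked after their values were seen. The highest library had 95 reads of the endothelial gene Cdh5 in Fsk tdTomato+, 9 in DMSO tdTomato+ and 2 in DMSO eGFP+ cells. For the muscle gene Actc1 it had 54 reads in Fsk tdTomato+, 11 in DMSO tdTomato+ and 2 in DMSO eGFP+ cells. Of 8 neural genes Gap43, a growth cone protein gene, rose, with 31.8, 9.11 and 6.88 CPM in Fsk tdTomato+, 0.730, 0.672 and 1.44 CPM in DMSO tdTomato+ and 0.689, 0.0719, 0.496 and 0.929 CPM in DMSO eGFP+ libraries (log2 fold change 4.83, SE 0.74, edgeR adjusted p = 0.0089; 3.84 and adjusted p = 0.0599 without Fsk replicate 1). The summed neural level was 27.1 to 79.6 CPM in Fsk tdTomato+, 46.1 to 63.8 CPM in DMSO tdTomato+ and 37.5 to 79.2 CPM in DMSO eGFP+ libraries. Of its 8 tested genes 6 had a positive log2 fold change (median 0.45), and Gap43 and Pax6 were higher in Fsk tdTomato+ cells without overlap. Of its untested members, Sox2 had up to 51 reads in a Fsk tdTomato+, 8 in a DMSO tdTomato+ and 6 in a DMSO eGFP+ library, and Dcx had up to 19 reads in a Fsk tdTomato+, 7 in a DMSO tdTomato+ and 4 in a DMSO eGFP+ library. The part of neural cells in the levels of the secretory genes was not tested. Of 12 notochord and epithelial genes T and Car3, carbonic anhydrase 3, fell, Car3 by 5.06 (SE 0.87, edgeR adjusted p = 0.0138), a call lost without any 1 of the Fsk libraries (adjusted p 0.0572 to 0.0938). The list had 4 positive and 8 negative log2 fold changes (median -0.73, and 0.54 for the treatment step). Its summed level was 98.5 to 157 CPM in Fsk tdTomato+, 18.4 to 87.1 CPM in DMSO tdTomato+ and 75.4 to 331 CPM in DMSO eGFP+ libraries. The ends overlapped in this sum, so the falls of T and Car3 do not stand for the list. In these sorted populations, fewer cells of a type and less RNA per cell cannot be told apart.

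**Figure D5:**
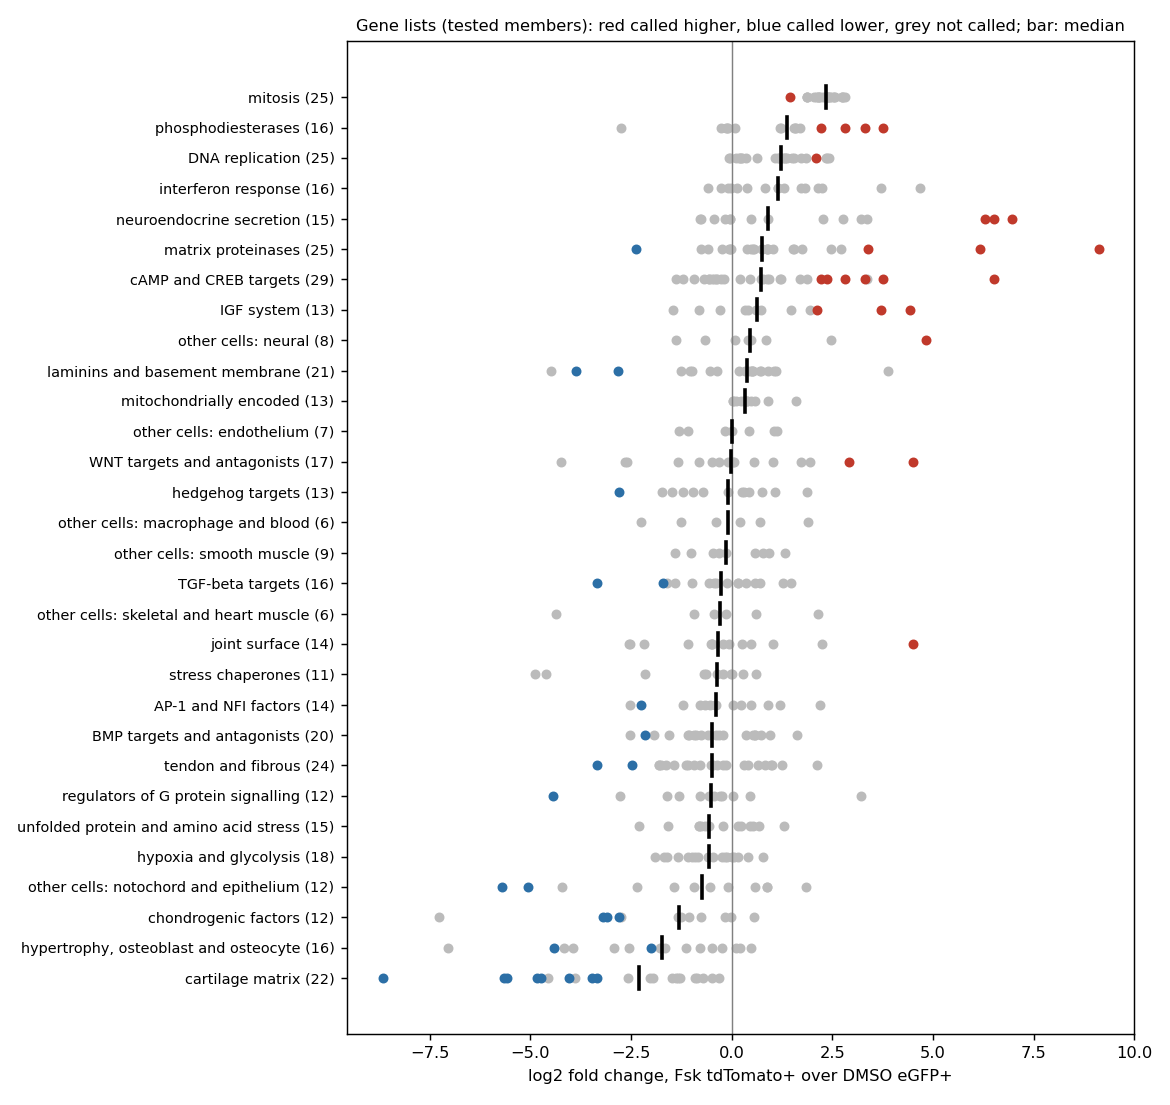
Log2 fold change of Fsk tdTomato+ over DMSO eGFP+ cells for each tested member of the lists with at least 5 tested genes, with the list median as a bar and the number tested in brackets. Called members are red where higher and blue where lower. Blue points are most numerous in the cartilage matrix list (8 of 22). Red points are most numerous in the cAMP (6 of 29), phosphodiesterase (4 of 16), neuroendocrine, IGF and matrix proteinase lists (3 each). The cAMP and phosphodiesterase lists share 4 called genes, and Scg2 is in the cAMP and neuroendocrine lists. Col2a1, Comp, Scg2 and Shisal1 are markers picked with earlier results of these data known.

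The other genes named for their large falls had roles outside these lists. Meltf, melanotransferrin, had 1.33, 1.07 and 0.842 CPM in Fsk tdTomato+, 3.34, 7.60 and 3.03 CPM in DMSO tdTomato+ and 44.1, 55.2, 27.1 and 14.8 CPM in DMSO eGFP+ libraries. The groups did not overlap, its position was 0.581, and it fell by 5.02 (SE 0.58, edgeR adjusted p = 0.00244). Ace, angiotensin-converting enzyme, had 1.70, 0.393 and 0.644 CPM in Fsk tdTomato+, 21.9, 115 and 6.11 CPM in DMSO tdTomato+ and 15.7, 51.3, 35.9 and 5.78 CPM in DMSO eGFP+ libraries, and fell by 4.90 (SE 1.07, edgeR adjusted p = 0.0431, position -0.165). Chil1, a chitinase-like protein secreted by chondrocytes and macrophages, fell by 4.46 (SE 0.79, edgeR adjusted p = 0.0161, position 0.183). Meltf kept its call in every leave-out, Chil1 lost it without any 1 of the Fsk libraries, and Ace in 6 leave-outs, without any Fsk library or DMSO eGFP+ replicate 1, 3 or 4 (adjusted p 0.0551 to 0.189).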

How the data were processed

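Poly(A) RNA of 10 libraries was analysed: 3 of Fsk tdTomato+, 3 of DMSO tdTomato+ and 4 of DMSO eGFP+ cells, grouped by the sample titles. The authors deposited 1 table of whole-number read counts for 56748 genes, extracted with Trizol per the labels and on build mm10 per the submitters' processing notes. No source used here names the aligner, the counting program or the handling of strand, so overlapping genes and near-identical copies are uncertain.

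Counts were fitted in R 4.3.3 with edgeR 4.0.16: filterByExpr by group (16169 genes), TMM scaling, glmQLFit (robust) with group as the only term on all 10 libraries, which gives 1 shared spread and 7 residual degrees of freedom, glmQLFTest for each comparison and Benjamini-Hochberg adjustment at 0.05 over all genes. The standard error is the size of the log2 fold change divided by the square root of F. Intervals of counts cover counting error only; 3 reads in a library correspond to 0.120 to 0.216 CPM. The groups compared, the gene lists and the rule for named genes were chosen with earlier results of these data known. Named genes were the markers, the 8 largest rises and falls with at least 20 CPM in the higher end and no overlap, up to 4 called members per list (the 2 most abundant where none was called) and up to 4 called genes per class of position. Genes outside this rule were named after their values were seen. The text says so at most of them, but not at Coro1a, Pax6, Sox2, Dcx and some others. Coordinates are from GENCODE M21 (15962, or 98.7%, of the tested genes matched by identifier) and promoter sequences from RefSeq (GRCm38.p6).

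Deviations from the group means of same-numbered libraries correlated at 0.492 to 0.649 between the DMSO groups, so the numbers pair libraries there, although the labels give a number no meaning. No 2 libraries agreed within sampling noise (lowest chi-square per degree of freedom 92.8). Alternatives were DESeq2 1.42.0, limma-voom (limma 3.58.1), scaling by RLE, an unfiltered table, a filter of 1 CPM in 3 or more libraries, the replicate block, only the 7 libraries of the ends, a test against 2-fold and leaving out each library; leaving out ribosomal and mitochondrial genes was chosen after seeing the data. On simulated counts for Fsk tdTomato+ against DMSO eGFP+ cells over 16169 genes, the steps recovered 3, 38, 48 and 50 of 50 changed genes at log2 fold changes of 1, 2, 3 and 5 and called 6 of 15969 unchanged genes. Changed genes were drawn from those with a mean of at least 5 CPM, and the libraries were simulated as independent. These rates therefore do not carry over to genes with fewer reads or to libraries that correlate by number.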

Additional observations from a re-analysis of the deposited data

Results flagged for a closer look

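In 4 genes 1 of the 4 DMSO eGFP+ libraries passed the limit on the log2(CPM + 0.5) scale by Dixon's ratio, the gap to the nearest library over the whole range, set against its 95% critical value for 4 values. For Mmp12 replicate 1 held 0.413 CPM and the other 3 libraries 0, a ratio of 1. For Gpha2 replicate 5 held 16.9 CPM and the others 3.99 to 4.63, a ratio of 0.902. For Pnoc, the gene of the neuropeptide precursor prepronociceptin, replicate 5 held its only read, a ratio of 1. With 3 libraries at 0 the ratio is 1 whatever the fourth holds, so for Mmp12 and Pnoc it does not show that a library stands apart. For Cspg4, a proteoglycan gene of pericytes and glial precursors, replicate 3 held 110.1 CPM and the others 296 to 356, a ratio of 0.840. The ratio was computed for 72 genes, and chance alone flags about 1 in 20. In all 4 genes the Fsk tdTomato+ libraries lay outside the range of the DMSO eGFP+ libraries.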

How the results depend on the processing

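All 220 genes kept the direction of their difference in each alternative that fitted them; the calls moved. Genes higher and lower in Fsk tdTomato+ than in DMSO eGFP+ cells (104 and 116) numbered 396 and 406 with DESeq2, 459 and 341 with no filter on low counts, 35 and 33 against a 2-fold threshold, and 65 lower with limma-voom. With the replicate block they numbered 442 and 378. Same-numbered libraries of the ends correlated at 0.0703 to 0.443 and differently numbered ones at -0.467 to 0.258. These ranges overlap, so the numbers are not taken to pair the ends, though a partial pairing is not excluded. Of the 220 genes 217 were called by DESeq2, 146 by limma-voom, 215 with no filter and 219 with the block. Leaving out 1 library gave 32 to 274 higher and 15 to 195 lower genes, with the highest counts without DMSO eGFP+ replicate 5 and the lowest without DMSO eGFP+ replicate 4 (higher) and Fsk replicate 5 (lower). Against the midpoint DESeq2 called 31 higher and 48 lower, no filter 58 and 57, and the replicate block 31 and 34. The reporter step had 13 lower with DESeq2, 18 with no filter and 14 with the block. The treatment step (48 and 44) had 297 and 272 with DESeq2, 261 and 201 with no filter, 264 and 244 with the replicate block, 24 lower with limma-voom, and 13 to 97 higher and 6 to 77 lower across the leave-outs. Median positions ranged from 0.0406 to 0.272 for higher and from 0.0982 to 0.221 for lower genes across the leave-outs. With positions divided at 0.4 and 0.6 instead, 95 higher genes lay below, 9 between and 0 above, and 97, 15 and 4 lower genes. Among single genes, the sign of Prg4 turned with limma-voom (0.82) and without DMSO eGFP+ replicate 1 (0.52), and that of Ucma with the replicate block (0.65) and without DMSO eGFP+ replicate 3 (0.31). Across the leave-outs Prg4 ranged from -0.88 to 0.52 and Ucma from -1.63 to 0.31. A leave-out has fewer libraries to test with, and the counts of called genes fell in some leave-outs and rose in others. The causes were not tested. With 3 against 4 libraries, small fold changes were rarely recovered in simulation, and reads near 0 at 1 end limit the precision of the largest fold changes.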

Other observations

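The genes given here were called, lie outside the lists and were picked after their values were seen, so no count or test of a group stands behind them. The ligand and decoy receptor that set osteoclast formation moved in opposite directions. Tnfsf11, or RANKL, the ligand, had 39.7, 30.6 and 22.2 CPM in Fsk tdTomato+, 3.49, 1.76 and 1.64 CPM in DMSO tdTomato+ and 3.10, 4.38, 1.65 and 1.29 CPM in DMSO eGFP+ libraries, and rose by 3.57 on the log2 scale (SE 0.49, edgeR adjusted p = 0.00475). Tnfrsf11b, or osteoprotegerin, the decoy receptor, had 1.52, 2.36 and 2.33 CPM in Fsk tdTomato+, 37.7, 15.6 and 19.8 CPM in DMSO tdTomato+ and 56.9, 24.2, 22.4 and 37.6 CPM in DMSO eGFP+ libraries, and fell by 4.09 (SE 0.49, edgeR adjusted p = 0.00275). For Tnfsf11 and Tnfrsf11b the 2 DMSO groups overlapped, and both calls held in every leave-out.

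Pnoc, a neuropeptide precursor gene, had 24.4, 4.27 and 6.54 CPM in Fsk tdTomato+ libraries, against a single read in all DMSO eGFP+ libraries together, a ratio of 738 with a 95% counting interval of 132 to 29210. Npy, neuropeptide Y, rose by 3.50 (SE 0.69, edgeR adjusted p = 0.0240) and Penk, proenkephalin, fell by 4.32 (SE 0.91, edgeR adjusted p = 0.0340), with 22.0 to 52.8 CPM in Fsk tdTomato+, 58.1 to 913 CPM in DMSO tdTomato+ and 152 to 1159 CPM in DMSO eGFP+ libraries. Both lost their calls in 5 leave-outs, without any Fsk library or DMSO eGFP+ replicate 3 or 4 (adjusted p 0.0521 to 0.176). The related heparin-binding growth factors Ptn, pleiotrophin, and Mdk, midkine, rose by 2.51 (SE 0.50, edgeR adjusted p = 0.0251) and 2.54 (SE 0.38, edgeR adjusted p = 0.00791), and Ptn lost its call in 4 leave-outs, without Fsk replicate 4 or 5 or DMSO eGFP+ replicate 3 or 4 (adjusted p 0.0652 to 0.108). Vcan, the matrix proteoglycan versican, rose by 2.16 (SE 0.48, edgeR adjusted p = 0.0454) and lost its call in 6 leave-outs, without any Fsk library, DMSO tdTomato+ replicate 5 or DMSO eGFP+ replicate 1 or 4 (adjusted p 0.0588 to 0.179), whereas Cspg4, a surface proteoglycan gene, fell by 3.11 (SE 0.50, edgeR adjusted p = 0.00916) and lost its call without any 1 of the Fsk libraries (adjusted p 0.0550 to 0.0613).

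Nt5e, the ecto-nucleotidase CD73 that makes adenosine from AMP, had 11.6, 17.3 and 10.7 CPM in Fsk tdTomato+, 369, 82.9 and 29.7 CPM in DMSO tdTomato+ and 411, 228, 235 and 93.0 CPM in DMSO eGFP+ libraries, and fell by 4.20 (SE 0.80, edgeR adjusted p = 0.0215). Lgals3, galectin 3, fell by 4.37 (SE 0.83, edgeR adjusted p = 0.0217). Both lost their calls without any 1 of the Fsk libraries, and Nt5e also without DMSO eGFP+ replicate 4 (adjusted p 0.0596 to 0.136). Dpt, the gene of the matrix protein dermatopontin, had 172 reads in Fsk tdTomato+ cells and 0 in all DMSO eGFP+ libraries together, which is at least 69.4-fold higher against a floor of 3 reads over the group; its call was lost without any 1 of the Fsk libraries or DMSO eGFP+ replicate 4 (adjusted p 0.0515 to 0.133).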
